A study of Mus musculus with 9 samples.

Results

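The genes described here are 42 mouse ribosome biogenesis factors, the proteins that make ribosomes rather than the proteins that ribosomes are built of. They were chosen by name from the deposited gene table. The choice was made with earlier results of these counts and FPKM values known, so their fold changes describe them and do not support the choice. The rule set no threshold on any value, so there are no genes just inside or outside it. All 42 members were found among the 28379 genes of the table, and all 42 were among the 17002 genes that passed the filter on low counts. FPKM, the unit of the levels below, is the number of read fragments per kilobase of transcript and of sequencing depth, so levels of different genes can be set side by side.

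RNA was sequenced from bone marrow-derived macrophages (BMDMs) of C57BL/6J mice, which are macrophages grown out of marrow with the growth factor M-CSF and which can turn into osteoclasts. There were 3 groups of 3 libraries, and all received M-CSF at 20 ng/ml for 48 h. The PBS group had no further agent, and the RANKL group had RANKL, the cytokine that drives osteoclast formation, at a dose of 100 ng/ml. The RANKL + Vit D + K group, called the vitamin group below, had that RANKL dose with calcitriol at 1000 nM and the vitamin K2 form MK4. The labels give MK4 at 20 µM and the methods give another dose. The methods describe a library made of pooled RNA and do not say how many animals or dishes a library holds, so p-values measure the spread between these libraries only, which may be technical. In such a bulk sample, fewer cells of a type and less RNA per cell cannot be told apart.

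Ribosome production starts in the nucleolus, where RNA polymerase I copies ribosomal DNA into a long precursor RNA. Small nucleolar ribonucleoproteins (snoRNPs) modify this RNA, with box C/D snoRNPs guiding methylation and box H/ACA snoRNPs guiding pseudouridylation. A large assembly called the small-subunit processome, with the UTP-A and UTP-B complexes and the U3 snoRNP in it, then cuts and folds the part that becomes the small subunit, while other factors build the large subunit. The demand for these factors rises when cells grow, and the transcription factor MYC is a known activator of many of their genes.

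With the vitamins, the members were mostly higher than with RANKL alone. Of the 42 members, 27 were called higher and 0 lower in the edgeR quasi-likelihood test at a Benjamini-Hochberg adjusted p of 0.05, while 16.5% of all genes tested were called higher, 17.2% lower and 33.7% in either direction. The median log2 fold change was 0.64 over the members and −0.04 over all genes tested, and 39 members had a positive value. Between RANKL and PBS, 0 members were called in either direction, against 2.31% of all genes called higher, 1.25% lower and 3.56% in all. The median of the members was 0.31 and 35 were positive. In that comparison 13 members, all of them higher, had an unadjusted p under 0.05, as 9.93% of all genes did in that direction, and DESeq2 called 6 members and 5.86% of all genes higher. PBS and RANKL libraries with the same number deviated together weakly. With the replicate number as a block, which the main fit does not hold, 1 member, Nhp2, and 3.16% of all genes were called higher. With the vitamins against PBS, 37 members were called higher and 0 lower, against 19.8% of all genes called higher, 20.8% lower and 40.6% in all, and the median was 0.91. With 1 library left out at a time, 16 to 31 members were called higher with the vitamins than with RANKL, and it was 16 without RANKL replicate 1, RANKL replicate 3, vitamin replicate 1 or vitamin replicate 3, fits in which 8.96% to 10.2% of all genes were called higher. In none of the 3 comparisons was a member lower at an unadjusted p under 0.05 in edgeR (0 of 42) or called lower by DESeq2 (0 of 42). The comparisons share their control libraries, so each is given by its own values.

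**Figure D1:**
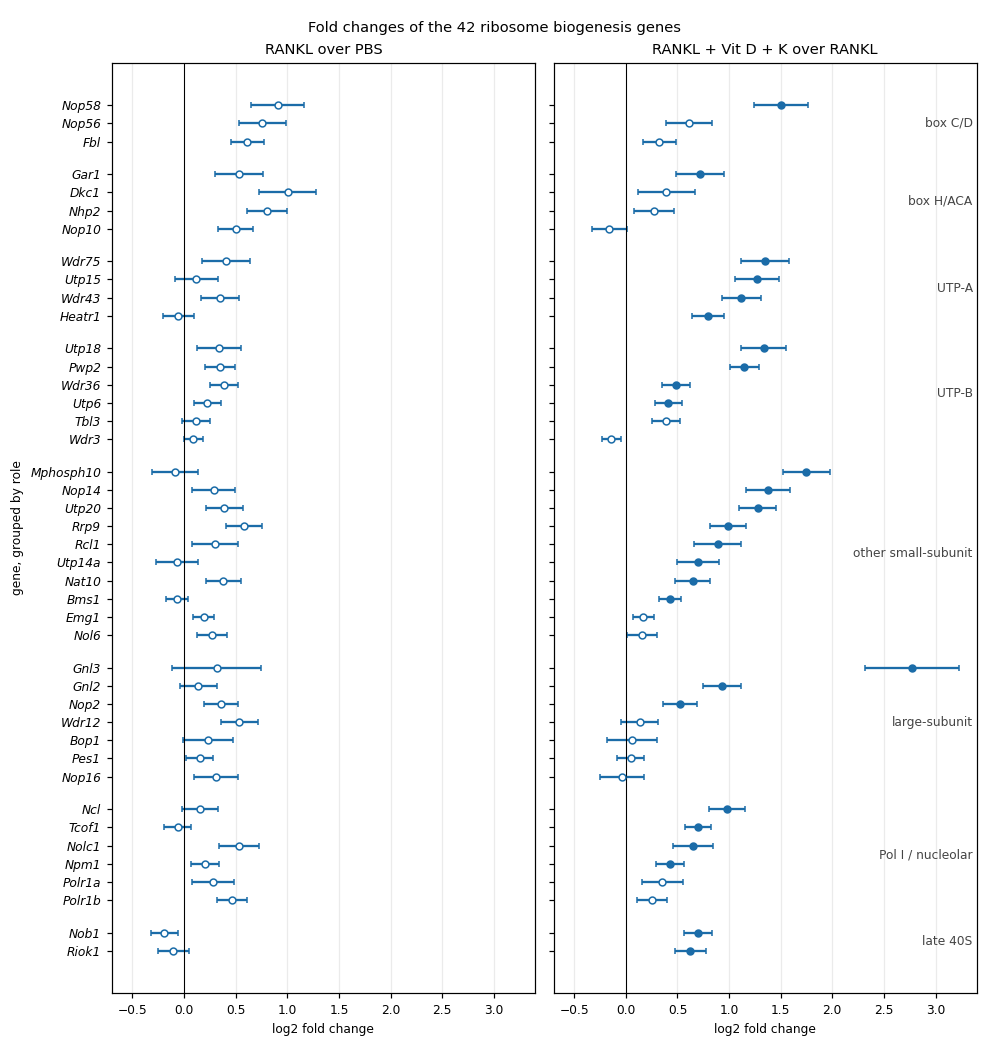
Log2 fold change (x axis) of each of the 42 genes (y axis, grouped by role) for RANKL over PBS on the left and RANKL + Vit D + K over RANKL on the right, with bars for the SE and filled points for adjusted p under 0.05. On the right 27 points are filled and Gnl3 lies farthest out at 2.77, while on the left no point is filled and the values lie between −0.19 and 1.00.

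The summed FPKM of the 42 members was 392.4, 377.6 and 388.6 in PBS replicates 1 to 3, 460.1, 594.2 and 453.5 in the RANKL libraries, and 736.2, 647.5 and 667.4 in the vitamin libraries. The groups did not overlap, and RANKL replicate 2 stood well above the other RANKL libraries. This library was the highest of its group for 41 of 42 members by FPKM and for 39 by CPM (counts scaled to library size). For what share of all genes it was the highest was not taken. Its summed FPKM of 18 proliferation genes was also high, at 445.3 against 120.2 and 130.2 in the other RANKL libraries, and whether this bears on the members was not tested. Without RANKL replicate 2, 31 members and 14.1% of all genes were called higher with the vitamins than with RANKL and the median of the members was 0.78, while the median for RANKL against PBS fell from 0.31 to 0.15, with 0 members called in edgeR beside 0.733% of all genes called higher and 0.321% lower.

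The vitamin libraries also differed among themselves. By CPM, vitamin replicate 2 was the lowest of its group for 25 members, 23 of which were called higher than RANKL. It was the highest for 12 members, of which only Rrp9 was called. The shares of all genes in these positions were not taken. Without vitamin replicate 2, 27 members and 21.2% of all genes were called higher than RANKL, and 4 members and 5.62% of all genes were called higher in RANKL than in PBS. Without both this library and RANKL replicate 2, a fit chosen after seeing the data, 5 members (Nop56, Nop58, Fbl, Dkc1 and Nhp2) and 5.25% of all genes were called higher in RANKL than in PBS. After the group means were removed, the median Pearson correlation between members over the 9 libraries was 0.53, and 84% of the 861 pairs were positive. This is a description of libraries that all the members share, RANKL replicate 2 among them.

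**Figure D2:**
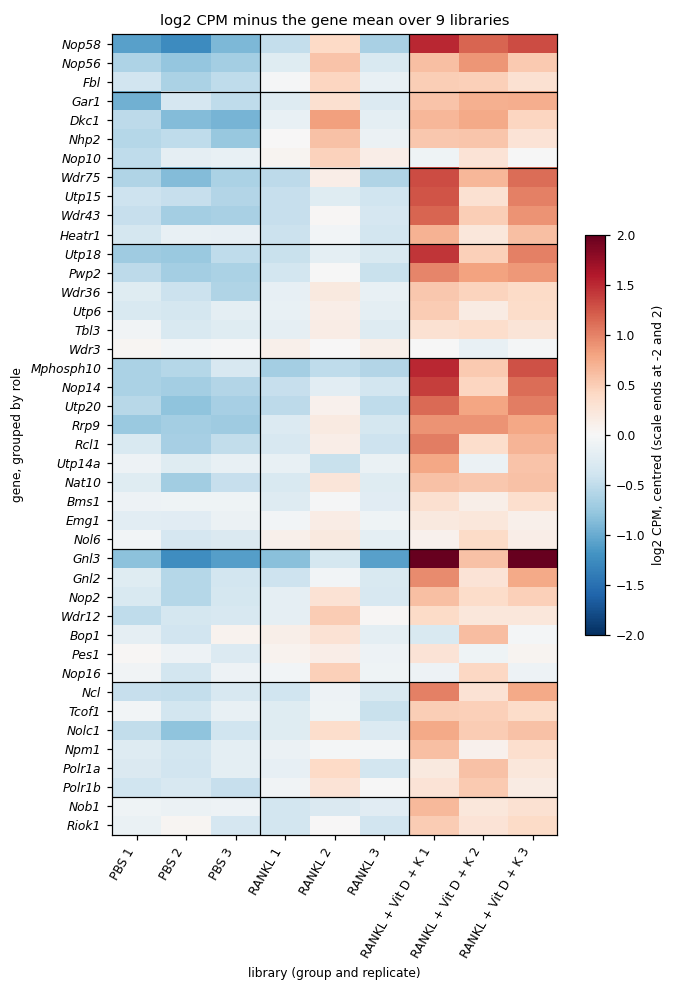
Log2 CPM of each of the 42 genes (rows, grouped by role) in each of the 9 libraries (columns), minus the mean of the gene over the 9 libraries. The median of this centred value over the genes lay between −0.44 and −0.36 in the PBS libraries, was −0.25, 0.14 and −0.28 in RANKL replicates 1 to 3, and lay between 0.43 and 0.60 in the vitamin libraries.

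The levels of the members spanned a wide range. Npm1, the nucleolar chaperone nucleophosmin, was the most abundant in each group, at 115 ± 4.55 FPKM in PBS, 145 ± 10.2 in RANKL and 174 ± 17 in the vitamin group (SD, n = 3). Ncl, for nucleolin, and Pes1 came next in each group. These 3 genes made up 44.9% of the summed FPKM of the members in PBS, 43.2% in RANKL and 39.5% in the vitamin group. Nop58 was the least abundant in PBS, at 1.01 ± 0.107 FPKM, and Wdr12 was the least abundant in the vitamin group, at 1.98 ± 0.123. At the low end of the order in PBS, the means of Rrp9 (1.74 ± 0.0673 FPKM) and Dkc1 (1.73 ± 0.27) did not differ beyond their spread.

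The box C/D core holds Nop56 and Nop58, the scaffold proteins, and Fbl, the methyltransferase fibrillarin. Nop58 lies at chr1:59684971-59719044 (plus strand, GRCm38). Its FPKM was 1, 0.905 and 1.12 in the PBS libraries, 1.64, 3.24 and 1.42 in the RANKL libraries, and 5.55, 5.18 and 5.08 in the vitamin libraries. The 3 groups did not overlap. Nop58 rose with the vitamins over RANKL by a log2 fold change of 1.50 (SE 0.26, adjusted p = 0.00374, edgeR), and its value for RANKL over PBS was 0.91 (SE 0.26, adjusted p = 0.0964). Nop56 and Fbl were not called with the vitamins, at 0.61 and 0.32. For Nop56, vitamin replicate 2 was the highest library at 15.7 FPKM, with 10.9 and 10.8 in the others, and RANKL replicate 2 lay among them at 13.4.

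In the box H/ACA core, Dkc1 encodes the pseudouridine synthase dyskerin and Nhp2, Nop10 and Gar1 encode its partner proteins. Gar1 was the member of this core that rose with the vitamins (log2 fold change 0.72, SE 0.23, adjusted p = 0.0395). Its FPKM was 1.94, 3.08 and 2.6 with PBS, 3.38, 5.47 and 3.29 with RANKL, and 5.2, 6.74 and 6.03 with the vitamins, where the lowest vitamin library lay under the highest RANKL library. Nop10 had the lowest value of all members, −0.16 (SE 0.17, adjusted p = 0.491). Its FPKM was 16.1, 22.9 and 16.8 with RANKL and 12.5, 19 and 13.8 with the vitamins, so these groups overlapped.

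Genes of the 2 snoRNP cores held the 5 highest values of RANKL over PBS, although none passed the threshold. Without RANKL replicate 2 these 5 values were lower, at 0.60 for Dkc1, 0.55 for Nhp2, 0.51 for Nop58 and 0.42 for both Nop56 and Fbl. Dkc1 was at 2.04, 1.65 and 1.51 FPKM with PBS and at 2.85, 6 and 2.73 with RANKL, a log2 fold change of 1.00 (SE 0.27, adjusted p = 0.0838). Every RANKL library lay above every PBS library for Dkc1, and replicate 2 was far above the others. Nhp2 followed Nop58, at 0.80 (SE 0.19, adjusted p = 0.056), then Nop56 at 0.76 and Fbl at 0.61, and Nop10 was the lowest of the H/ACA core at 0.50 (SE 0.17, adjusted p = 0.148). With the replicate number as a block, Nhp2 was the 1 member called higher in RANKL (adjusted p = 0.0294), beside 3.16% of all genes. The 6 members called by DESeq2 were Nop56, Nop58, Fbl, Dkc1, Nhp2 and Rrp9, with adjusted p between 0.00553 and 0.0317.

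The UTP-A complex binds the start of the precursor RNA, and its 4 members Wdr43, Wdr75, Utp15 and Heatr1 all rose with the vitamins. Wdr75 was at 2.65, 2.27 and 2.58 FPKM in PBS, 3.02, 5.13 and 2.81 in RANKL, and 9.23, 6.98 and 8.49 in the vitamin group. Its log2 fold change was 1.35 (SE 0.23, adjusted p = 0.0036), and every vitamin library lay above every RANKL library. Utp15 (1.27) and Wdr43 (1.12) lay close to it. Heatr1 had the smallest change of the complex, 0.80 (SE 0.15, adjusted p = 0.00546). Its FPKM was 6.35, 8.84 and 6.56 with RANKL and 12, 10.2 and 11.6 with the vitamins. RANKL over PBS was 0.41 for Wdr75 (SE 0.23, adjusted p = 0.396) and −0.06 for Heatr1 (SE 0.15, adjusted p = 0.895).

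The UTP-B complex joins the processome with the U3 snoRNP, and its genes were less alike. Utp18 was at 3.65, 3.7 and 4.16 FPKM with PBS, 4.74, 6.03 and 5.12 with RANKL, and 14.9, 9.06 and 11.6 with the vitamins, so the groups did not overlap. It rose over RANKL by 1.33 (SE 0.22, adjusted p = 0.00291). Pwp2 rose by 1.15, with FPKM of 3.61, 5.02 and 3.41 in RANKL and 7.96, 8.27 and 7.71 in the vitamin group, and its adjusted p of 0.00106 was the lowest of the members. Wdr36 and Utp6 rose by 0.48 and 0.41, and Tbl3 was at 0.39 (SE 0.14, adjusted p = 0.0507).

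Wdr3, also of UTP-B, did not move with its partners. Its FPKM was 10.1, 9.75 and 9.6 in PBS, 11.4, 11.5 and 11.3 in RANKL, and 9.02, 9.64 and 9.29 in the vitamin group. By FPKM and also by CPM it was the 1 member with every vitamin library below every RANKL library. The test on counts gave −0.14 (SE 0.09, adjusted p = 0.27), and limma on log2(FPKM + 1) called it lower. For RANKL over PBS it had the smallest value of the complex, 0.09 (SE 0.09, adjusted p = 0.684), and Wdr36 the largest, 0.39 (SE 0.14, adjusted p = 0.165). Over the 9 libraries Wdr3 was also the member least like the mean of the others, with a Pearson correlation of −0.43, while Utp20 and Nop58 were the most alike, at 0.99. These correlations hold the group differences and are a description.

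Of the 10 other small-subunit factors, 8 rose with the vitamins. Mphosph10, a scaffold protein of the U3 part of the processome, lies at chr7:64376527-64392268 (minus strand, GRCm38). Its FPKM was 5.52, 5.91 and 6.76 with PBS, 5.71, 6.99 and 6 with RANKL, and 22.4, 13.4 and 19.9 with the vitamins. PBS and RANKL overlapped and the vitamin libraries stood apart. The log2 fold change over RANKL was 1.75 (SE 0.23, adjusted p = 0.00119).

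Nop14 (1.38) and Utp20 (1.28), further parts of the processome, rose by like amounts, and Utp20 was even between the vitamin libraries at 8.03, 7.52 and 7.84 FPKM. Rrp9, a U3-specific protein, rose by 0.99, and Rcl1, the partner of the GTPase Bms1, by 0.89. Utp14a, Nat10, an RNA acetyltransferase, and Bms1 itself rose by 0.70, 0.65 and 0.42. Nol6 and the methyltransferase gene Emg1 were not called. Nol6 was at 7.89, 9.01 and 6.3 FPKM with RANKL and 6.66, 9.64 and 7.15 with the vitamins, a log2 fold change of 0.16 (SE 0.14, adjusted p = 0.431). For RANKL over PBS, Rrp9 had the largest value of these 10 at 0.58 (SE 0.17, adjusted p = 0.104), from 1.69, 1.82 and 1.72 FPKM to 2.52, 3.74 and 2.37. Utp14a was the closest to 0, at −0.07 (SE 0.21, adjusted p = 0.905).

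Of the 7 large-subunit factors, Gnl3, Gnl2 and Nop2 rose with the vitamins and the others were not called. Gnl3, the nucleolar GTPase nucleostemin, had the largest change of the 42 members, and lies at chr14:31012433-31019152 (minus strand, GRCm38). Its FPKM was 3.84, 2.97 and 3.13 in PBS, 4.1, 6.14 and 3.38 in RANKL, and 39.2, 11.1 and 30.4 in the vitamin group. All 3 vitamin libraries were above all the others, and vitamin replicate 2 lay far below its 2 partners. The log2 fold change over RANKL was 2.77 (SE 0.45, adjusted p = 0.00297). The related GTPase gene Gnl2 rose by 0.93 and the RNA methyltransferase gene Nop2 by 0.53.

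Pes1, Bop1 and Wdr12 form the PeBoW complex, which is needed to mature the RNA of the large subunit, and none of the 3 was called with the vitamins. Pes1 was at 34.1, 38.5 and 30 FPKM with RANKL and 33.8, 31.2 and 30.2 with the vitamins, and its log2 fold change was 0.05 (SE 0.13). Bop1 was at 11, 13.4 and 8.78 with RANKL and 7.03, 15.7 and 8.86 with the vitamins, at 0.06 (SE 0.24). Wdr12 was at 0.13 (SE 0.18), and it had the largest value of the large-subunit factors for RANKL over PBS, 0.54 (SE 0.18, adjusted p = 0.141), from 1.16, 1.33 and 1.31 FPKM to 1.57, 2.72 and 1.77. Nop16 was the closest to 0 of these factors with the vitamins, at −0.04 (SE 0.21, adjusted p = 0.902), with FPKM of 7.73, 12.1 and 7.46 in RANKL and 6.44, 10.9 and 6.73 in the vitamin group. In both groups replicate 2 was the high library. Gnl2 had the smallest value for RANKL over PBS, 0.14 (SE 0.18, adjusted p = 0.754).

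Among RNA polymerase I and the abundant nucleolar proteins, Ncl led with the vitamins. Its FPKM was 29.1, 29.8 and 31.7 with PBS, 32.8, 43.5 and 34.4 with RANKL, and 74.5, 53.5 and 65.7 with the vitamins, without overlap between the vitamin libraries and the rest. Its log2 fold change over RANKL was 0.98 (SE 0.18, adjusted p = 0.00432). Tcof1, for treacle, which acts in ribosomal DNA transcription, rose by 0.70, the phosphoprotein gene Nolc1 by 0.65 and Npm1 by 0.42.

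The polymerase genes themselves, Polr1a and Polr1b, which encode the largest subunits of the enzyme, were not called with the vitamins. Polr1b was at 2.85, 3.89 and 2.93 FPKM in RANKL and 3.11, 4.36 and 3 in the vitamin group, a log2 fold change of 0.26 (SE 0.15, adjusted p = 0.207). Polr1a was at 0.35. For RANKL over PBS, Nolc1 had the largest value of the 6, 0.53 (SE 0.19, adjusted p = 0.171), and Tcof1 was the closest to 0, at −0.06 (SE 0.13, adjusted p = 0.853).

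The 2 late factors act on the small subunit outside the nucleolus. Nob1, the nuclease that makes the final cut at the end of the small-subunit RNA, was at 6.02, 6.06 and 5.86 FPKM with PBS, 5.34, 6.02 and 5.79 with RANKL, and 9.27, 8.15 and 7.56 with the vitamins. It rose over RANKL by 0.70 (SE 0.13, adjusted p = 0.00523), and its value for RANKL over PBS, −0.19 (SE 0.13, adjusted p = 0.498), was the lowest of the members. The kinase gene Riok1 rose by 0.63, from 1.72, 2.39 and 1.67 FPKM to 2.7, 2.7 and 2.59.

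**Figure D3:**
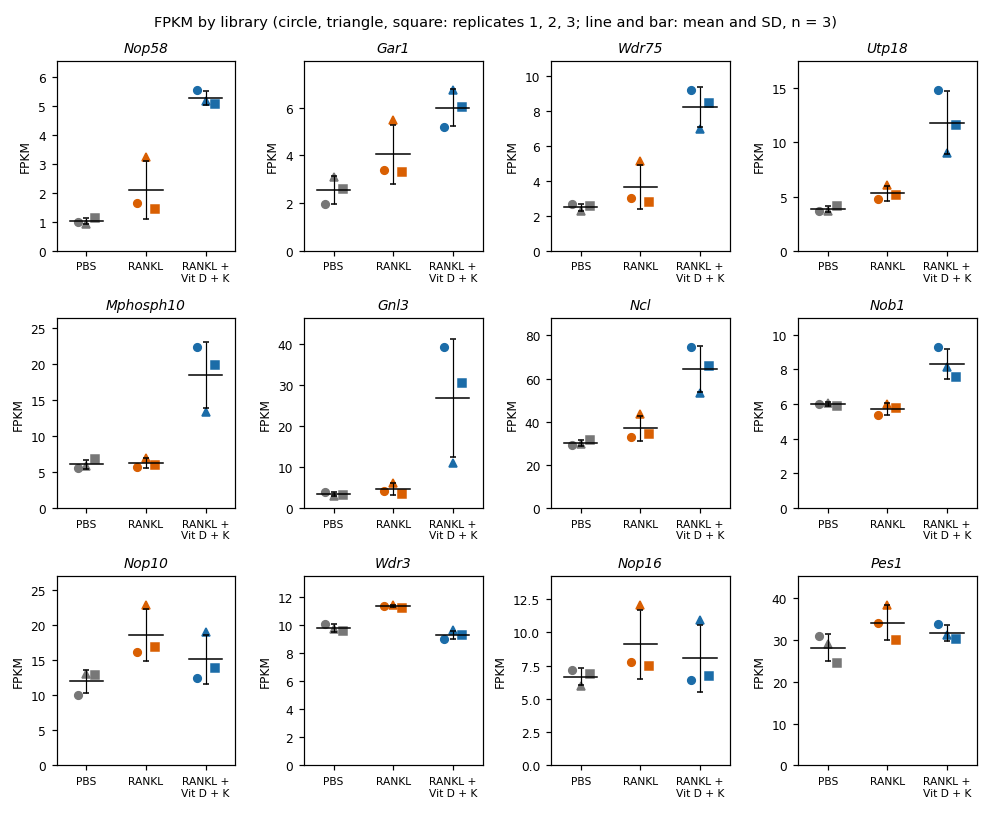
FPKM (y axis, from 0) of 12 genes in the PBS, RANKL and RANKL + Vit D + K libraries, with a point per library and a line and bar for the mean and SD of 3. The upper 8 genes had the largest change with the vitamins in their role group, among them Gnl3 with up to 39.2 and Ncl with up to 74.5 FPKM, and the lower 4 did not pass the test with the vitamins, with Pes1 between 24.6 and 38.5 FPKM in all libraries.

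With the vitamins against PBS, the members with the largest differences were Gnl3, Nop58 and Wdr75. Gnl3 reached a log2 fold change of 3.08 (adjusted p = 0.00126), Nop58 2.41 (adjusted p = 0.000415) and Wdr75 1.76 (adjusted p = 0.000811) in the edgeR fit. Pwp2 had the lowest adjusted p, 0.000257, at 1.50. For 37 of the members every vitamin library lay above every PBS library, by FPKM and also by CPM. The share of all genes that lay apart in this direction was not taken. The 5 members not called were Nop10, Wdr3, Bop1, Pes1 and Nop16. An exact two-sided permutation test of 3 libraries against 3 cannot go below 0.1, and 37 members reached this smallest value against PBS, 29 with the vitamins against RANKL and 21 with RANKL against PBS. Of all genes tested, 53.1%, 46.8% and 35.7% reached it in these comparisons, by CPM and with both directions counted.

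A further 137 ribosome biogenesis genes that are no members were listed by their roles, of which 134 were matched by name in the table and 132 were tested. With the vitamins over RANKL, 63 were called higher and 2 lower, and the median was 0.44. Of all genes tested, 16.5% were called higher and 17.2% lower. The members and this list were both written with earlier results of these data known. Of the large-subunit factors on it 28 of 48 were called higher, led by Tma16 (1.31), Rrp15 (1.26) and Gtpbp4 (1.19), and of the small-subunit factors 18 of 35, led by Ltv1 (1.28), Dimt1 (1.03) and Pno1 (1.00). Surf6, a nucleolar protein gene, and C1d, a cofactor of the RNA exosome, were the 2 called lower. Of the snoRNP assembly and RNase MRP genes 8 of 18 were called higher, led by Rpp40 (1.67), and of the exosome genes 5 of 13, led by Exosc1 (0.94). The other polymerase I genes lay nearest to the share of all genes, with 4 of 18 called higher, led by Taf1a (1.19). For RANKL against PBS, 1 gene of the list was called higher and 1 lower, beside 2.31% and 1.25% of all genes. Against PBS the vitamins gave 78 higher and 2 lower, beside 19.8% and 20.8%.

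**Figure D4:**
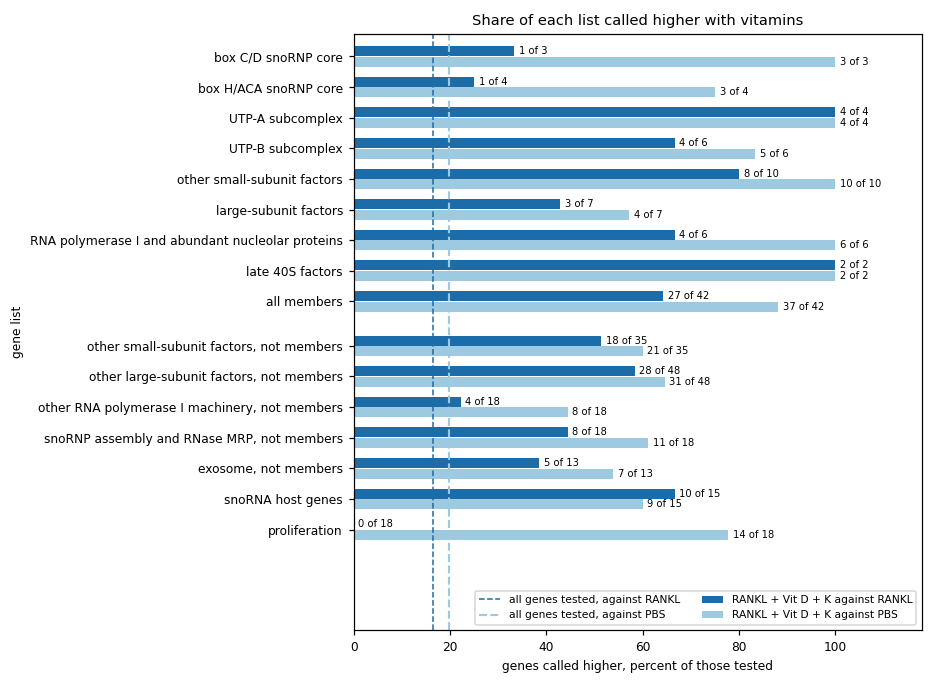
Percent of the tested genes of each list called higher (x axis) in RANKL + Vit D + K against RANKL (dark) and against PBS (light), with the counts at the bars and dashed lines at the 16.5% and 19.8% of all tested genes. The bars of all members stand at 27 of 42 and 37 of 42, and those of the proliferation genes at 0 of 18 and 14 of 18.

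Some members carry snoRNAs in their introns, which was no part of the rule. In GENCODE release M21, 6 members (Nop56, Nop58, Dkc1, Wdr43, Gnl3 and Ncl) hold 19 snoRNA genes on their own strand. Their median log2 fold change with the vitamins over RANKL was 1.05 with 4 of 6 called higher, and that of the 36 members without a snoRNA was 0.58 with 23 called. Of 15 rows of snoRNA host genes that are no members, 10 were called higher and 2 lower, beside 16.5% and 17.2% of all genes. Snhg12 (log2 fold change 2.22, adjusted p = 0.00807) and Snhg5 (2.01, adjusted p = 0.00189) were among the higher ones. The snoRNAs themselves are too short and lack the poly(A) tails that this library type selects, so they were not measured here. A gene on the other strand overlaps 19 members, such as Pbrm1 for Gnl3 and Idh3b for Nop56, and whether the counting used the strand is not stated.

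The GC content of the longest annotated transcript ranged from 40.4% to 59.9% over the members. Across the 42 genes it had a Pearson correlation of −0.28 with the log2 fold change of the vitamins over RANKL. With the GC trend of each library removed, 28 members and 18.3% of all genes were called higher than RANKL.

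The promoters of the members were searched for 4 short motifs, since most of the members rose with the vitamins. RefSeq promoters (GRCm38.p6, 250 bases before to 50 after the start) were given for 33 members, with 35 promoters in all. The CCGGAAG core of ETS factor sites, read on both strands, was in 11 of the 35 (31.4%), against 16.7% of the promoters of tested genes and 8.86% of all 32851 promoters. It was in the promoters of 8 of 22 members called higher with the vitamins over RANKL and of 3 of 11 not called. The MYC E-box CACGTG was in 5 (14.3%, against 9.64% of tested genes), the YY1 core ATGGCGG in 4 (11.4%, against 7.52%), and the NRF1 core GCATGCGC in 1 (2.86%, against 4.86%). In the 250 bases before the start alone, the E-box was in 2 of the 35 (5.71%), below the 8.03% of tested genes, and the ETS core in 10 (28.6%, against 12.9%). In the shown windows no motif overlapped another of the 4. A match of letters is a description and not a binding site. The windows below, from 4 members called higher with the vitamins over RANKL and 2 not called, show the ETS core or, for the last, the E-box in capitals, 5′ to 3′ on the strand of the gene and upstream of the start in RefSeq. The deposited gene spans of Mphosph10, Heatr1 and Nhp2 begin farther out than these RefSeq starts, so their windows lie inside those spans. A core that reads CTTCCGG is on the other strand.
Mphosph10 (chr7:64392237-64392259): ttggcgtactgCTTCCGGccggc
Utp18 (chr11:93885855-93885883): tccccctccacCCGGAAGatcggccttcc
Pwp2 (chr10:78185153-78185181): gcggctccgccCCGGAAGtgcgcgtttta
Heatr1 (chr13:12395348-12395374): gtagtgagaagCCGGAAGttcctatga
Nhp2 (chr11:51619739-51619767): cacttgaaaacCCGGAAGtgatgtcggag
Emg1 (chr6:124712205-124712233): gaatggcgcatCCGGAAGtcccgcctctt
Utp18 (chr11:93885770-93885797): cgagcgccggtCACGTGgcttgcggcgg

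Of these genes, Mphosph10, Utp18, Pwp2 and Heatr1 rose with the vitamins and Nhp2 and Emg1 were not called (log2 fold changes 0.27 and 0.17). Gnl3, Nop58 and Ncl, which rose the most in their role groups, held none of the 4 motifs in their promoters. In the other role groups the leaders Mphosph10, Utp18, Gar1, Wdr75 and Nob1 each held a motif.

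Of 11 tested genes of the MYC network, 5 were called higher and 3 lower with the vitamins over RANKL, and Max, Mxd1 and Mxd3 were not called (0.27, 0.52 and −0.06). Myc was at 0.217, 0.636 and 0.345 FPKM with PBS, 4, 14 and 2.57 with RANKL, and 48.1, 18.5 and 25 with the vitamins, and none of the groups overlapped. It rose from PBS to RANKL by a log2 fold change of 3.92 (adjusted p = 0.0225) and from RANKL to the vitamins by 2.38 (adjusted p = 0.0222). Mxd4, a partner of the dimerisation protein MAX, fell by 2.39 with the vitamins (adjusted p = 0.000176), from 18.2, 14.6 and 17.7 FPKM to 2.52, 3.25 and 2.97. Mxi1, also a partner of MAX, fell too. The further MAX partners Mnt and Mga rose, as did Fbxw7, which marks MYC for degradation. Mlx, which encodes a MAX-like protein, rose by 0.35. Vitamin replicate 2 stood nearest to the RANKL libraries for Mnt, Mga and Fbxw7. Mycl, a MYC paralog, was at 2.2, 5.8 and 1.36 FPKM with RANKL and at 0, 0.11 and 0 with the vitamins.

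**Figure D5:**
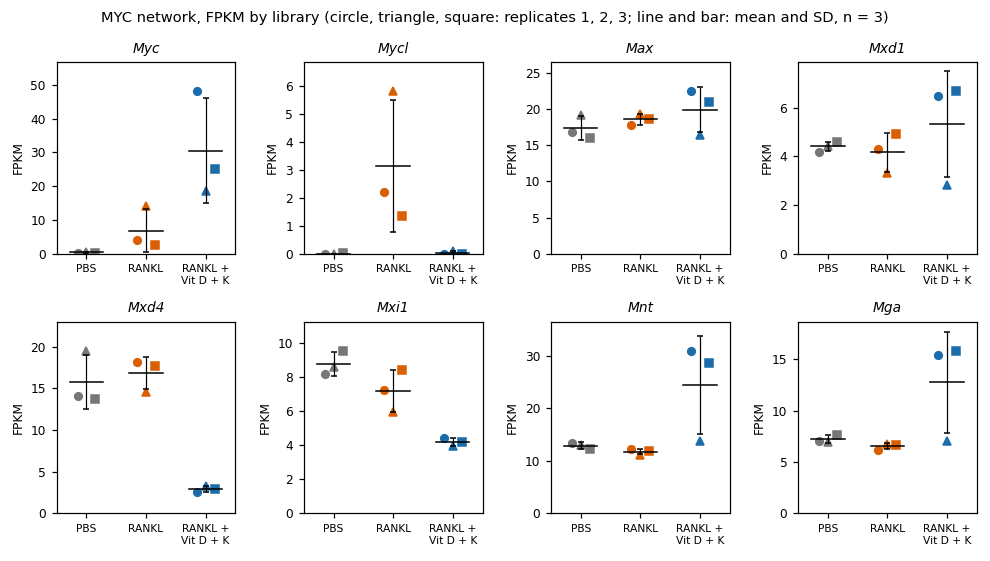
FPKM (y axis, from 0) of 8 MYC network genes in the PBS, RANKL and RANKL + Vit D + K libraries, with a point per library and a line and bar for the mean and SD of 3. Myc is at or under 0.636 FPKM with PBS and at or above 18.5 with the vitamins, and Mxd4 is at or under 3.25 with the vitamins and at or above 13.7 elsewhere.

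Other lists moved beside the members. Of 9 genes of the 5S RNP and p53 checkpoint, which senses faulty ribosome production, 4 were called higher with the vitamins over RANKL, beside 16.5% of all genes. Among them were Mdm2 (1.55), Rpf2 (0.94) and Cdkn1a (0.80). None of the 9 was lower, also at an unadjusted p under 0.05 and by DESeq2. Rpf2 and Rrs1 of this list are also on the list of other large-subunit factors. All 10 ATF4 and CHOP target genes of the amino acid and stress response rose. Of 18 proliferation genes, 0 were called by edgeR with the vitamins over RANKL, 17 had positive values and the median was 0.78. At an unadjusted p under 0.05 there were 3 higher and 0 lower, and DESeq2 called 2 higher and 0 lower. With the vitamins against PBS, edgeR called 14 of the 18 higher and 0 lower, beside 19.8% and 20.8% of all genes. For RANKL against PBS, edgeR called 0 of these genes and DESeq2 called 6 of them higher, beside 5.86% of all genes in DESeq2. Their summed FPKM was 61.18 to 153 with PBS, 120.2 to 445.3 with RANKL and 286.9 to 508.1 with the vitamins, and the part of these changes in those of the members was not tested.

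Total counts were between 65915112 and 68229647 per library, and the normalization factors between 0.891 and 1.11. Of 11 genes used as checks of treatment, 9 were called higher with RANKL than with PBS, and with the vitamins over RANKL 9 were called lower and Cyp24a1, the vitamin D-induced hydroxylase gene, higher. All 8 macrophage markers were detected in every group, but 6 were called lower and 1 higher with the vitamins, and their summed FPKM was 26410 to 30650 with PBS, 16670 to 24300 with RANKL and 4533 to 11580 with the vitamins. The summed FPKM of neutrophil markers was 11.08 to 128.1 with PBS, 11.3 to 147.9 with RANKL and 0.551 to 1.72 with the vitamins, and 6 of 7 tested were called lower, while Ly6g had reads in 1 library only. That of B cell markers was at most 48.71 with PBS, 10.02 with RANKL and 0.803 with the vitamins. The summed FPKM of T and NK cell, mast cell and erythroid markers was at most 0.145, 0.327 and 0.386 in any library. That of stromal markers was 0.204 to 0.586 with PBS, 0.382 to 0.431 with RANKL and 0.0257 to 0.0303 with the vitamins. The part of these cells in the results on the members was not tested.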

How the data were processed

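Poly(A) RNA of 9 libraries, 3 each with PBS, RANKL and RANKL + Vit D + K, was sequenced by the study in paired reads of 150 bases. The authors deposited raw read counts and FPKM per gene in one table. The submitters' processing notes name cutadapt 1.9, HISAT2 2.0.4, StringTie 1.3.4d and edgeR, and list a human build, although the gene identifiers are mouse. The deposited coordinates of 39 of 42 members equal those of GENCODE M21 (GRCm38). Strand use and the treatment of shared reads are not given in the sources used here. Depth was 65915112 to 68229647 counts per library.

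The members and the gene lists (other ribosome biogenesis factors, snoRNA hosts, 5S RNP and p53 checkpoint, ATF4 and CHOP targets, proliferation, MYC network, treatment checks and cell markers) were chosen with earlier results of these data known. Groups came from the labels. Counts were tested with edgeR 4.0.16 (R 4.3.3; filterByExpr, TMM, robust quasi-likelihood fit of all 9 libraries, group as the only term), with Benjamini-Hochberg adjustment over 17002 genes and a threshold of 0.05. The SE is the absolute log2 fold change divided by the root of F. FPKM served for levels. Full statistics were given for the members with the largest and, in groups of 4 or more, the smallest absolute log2 fold change of each role group in both comparisons with RANKL, and other members were described by their values. An exact two-sided permutation test used log2(CPM + 1). Scripts were tested on simulated data.

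The alternatives were DESeq2 1.42.0, other size factors and filters, limma 3.58.1 on log2(FPKM + 1) and log2(FPKM + 0.1) (kept where the group mean reached 0.5 FPKM somewhere), fits of 2 groups, a replicate block, and each library left out. Same-numbered libraries of PBS and RANKL deviated together weakly, with correlations of 0.101, 0.19 and 0.139 after removal of group means. On this evidence of the data they were taken as paired by number in the fit with the replicate block only. The main fit holds no such term, and no label states a pairing. Correlations were 0.000148, 0.0296 and 0.097 between the vitamin and RANKL groups and −0.0276, 0.013 and 0.0144 between the vitamin and PBS groups. These groups were not taken as paired, although 0.097 lies close to 0.101.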

Additional observations from a re-analysis of the deposited data

How the results depend on the processing

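With the vitamins over RANKL, the 27 called members kept their direction in all 22 other settings, and 16 of them were called in each: Nop58, Wdr43, Wdr75, Utp15, Heatr1, Pwp2, Utp18, Nop14, Utp20, Rrp9, Mphosph10, Gnl2, Gnl3, Tcof1, Ncl and Nob1. Leaving out 1 library gave 16 to 31 members called higher, with 16 without RANKL replicate 1 or 3 or vitamin replicate 1 or 3. Limma on log2(FPKM + 1) without a filter gave 17 (6.37% of all genes), and the 3 limma fits each called 1 member, Wdr3, lower (10.7% to 25.9% of all genes). For RANKL over PBS, DESeq2 called 6 members higher (5.86% of all genes), the minimum count of 50 gave 1 (3.64%), the fit of the 2 groups alone gave 2 (6.51%), and leaving out 1 library gave 0 to 4, with 4 without vitamin replicate 2 (5.62%). Without both RANKL replicate 2 and vitamin replicate 2, an alternative chosen after seeing the data, it was 5 (5.25%), with 33 for the vitamins over RANKL (21.8%) and Pes1 at 0.143 there. The replicate block gave 1 member (Nhp2; 3.16% of all genes) and, with the vitamins over RANKL, 25 (17.2%), 24 of them among the 27. With the GC trend of each library also removed, added after seeing the data, the block gave 1 (3.68%) and 29 (19%). Against PBS the vitamin count ran from 29 (limma without a filter, 9.52% of all genes) to 38 (GC trend removed, 23%). The summed level of the members was 1.36 times that of RANKL in FPKM and 1.66 times in CPM. When the 250 upstream bases alone were read, the E-box went from above to below its share in tested genes (5.71% against 8.03%), and the ETS core stayed above it (28.6% against 12.9%). The causes of these shifts were not tested.

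Changes of sign were seen in members near 0 that were not called, and limma on log2(FPKM + 1) left the sign of RANKL over PBS as it was for 36 of 42 members. With the vitamins over RANKL, Bop1 was at −0.027 with upper-quartile factors, −0.11 with limma on log2(FPKM + 1) with or without a filter, −0.13 on log2(FPKM + 0.1) and −0.17 without both replicates 2, and Pes1 was at −0.044, −0.0998 and −0.102 under the first 3 of these. Nop16 was at 0.0666 with the GC trend removed and 0.0736 with the block too. With 1 library left out, Bop1 ranged from −0.25 to 0.24, Pes1 from −0.0532 to 0.128, Nop16 from −0.24 to 0.17 and Wdr12 from −0.0055 to 0.359. For RANKL over PBS, Heatr1, Tcof1 and Utp14a were at 0.0555, 0.0546 and 0.0443 with limma on log2(FPKM + 1), with or without a filter, and at 0.0612, 0.0591 and 0.0478 on log2(FPKM + 0.1). Heatr1 was at 0.0049 without a filter on counts, Tcof1 at 0.0068 with the GC trend removed and 0.0051 with the block too, and Utp14a at 0.0645 without both replicates 2. With 1 library left out, they ranged from −0.178 to 0.0352, from −0.156 to 0.0604 and from −0.124 to 0.0224. The FPKM + 0.1 scale moved the median of all genes for RANKL over PBS from −0.04 to 0.08.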
